A study of Mus musculus with 21 samples.

Results

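The genes described here are 10 members of the BCL2 family that set how readily a cell enters mitochondrial apoptosis. They were chosen by name as the pro-survival genes Bcl2, Bcl2l1, Bcl2l2 and Mcl1, the pore-forming effectors Bax and Bak1, and the BH3-only genes Bcl2l11, Bad, Bbc3 and Pmaip1. All 10 had values in both expression tables, among 22899 genes listed for coculture cells and 27968 listed for sorted cells. The study differentiated mouse embryonic stem cells (mESC, labelled 129/ola) in a 3D self-assembling peptide and then seeded the colonies on OP9 stromal cells, a mouse bone marrow stromal line treated with mitomycin C, with stem cell factor, IL-3 and Flt3 ligand. RNA-seq was read from 21 libraries, 3 per group. For 6 of them the RNA was from all cells of the dish after 5 days: 3D+OP9, and 3D+0.1%gel, in which the colonies lay on a 0.1% gelatin coating without stromal cells. The other 15 came from sorted cells: undifferentiated mESC taken by SSEA-1; D5-LSKCD201+ and D5-LSKCD201-, which are lineage-negative Sca-1+ c-kit+ cells from 3D+OP9 with or without surface CD201; and FL-LSKCD201+ and BM-LSKCD201+, the same surface phenotype from the fetal liver of embryos and the bone marrow of young adult C57BL/6 mice. No group was treated with an inducer of cell death. The labels give 129/ola for each cultured group and C57BL/6 for each tissue group, while the study's methods name stem cells of both strains. By the labels, strain and source cannot be told apart. Values are FPKM, fragment counts scaled by transcript length and by library total, so that levels can be compared between genes.

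Mitochondrial apoptosis is decided at the outer mitochondrial membrane, where activated BAX and BAK1 assemble into pores that release cytochrome c. BCL2, BCL-XL (the long product of Bcl2l1), BCL-W (Bcl2l2) and MCL1 hold the effectors and their activators in check. BH3-only proteins tip this balance: BIM (Bcl2l11) and PUMA (Bbc3) bind every pro-survival protein, BAD binds BCL2, BCL-XL and BCL-W, and NOXA (Pmaip1) binds chiefly MCL1 and promotes its destruction. Blood stem cells are known to depend on MCL1, red cell precursors on BCL-XL and mature lymphocytes on BCL2, and Bax, Bbc3 and Pmaip1 are known p53 targets in response to DNA damage. MCL1, BAX, BIM and BAD are also strongly regulated as proteins, which were not measured here.

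The reference promoters of Bcl2, Mcl1 and Bax are shown because their group means spanned at least 2 on the log2 scale across the sorted cells and the reference holds a single start site for each. RefSeq windows (GRCm38.p6, 250 bases before to 50 after the start) were matched by symbol for 9 of the 10 members, with 15 start sites in all. Each is written 5′ to 3′ on the gene's strand, and capitals mark matches to the GC box GGGCGG on either strand and to the p53 half-site consensus. Bcl2 is at chr1:106714241-106714540 on the minus strand, Mcl1 at chr3:95658471-95658770 on the plus strand and Bax at chr7:45466849-45467148 on the minus strand.
Bcl2: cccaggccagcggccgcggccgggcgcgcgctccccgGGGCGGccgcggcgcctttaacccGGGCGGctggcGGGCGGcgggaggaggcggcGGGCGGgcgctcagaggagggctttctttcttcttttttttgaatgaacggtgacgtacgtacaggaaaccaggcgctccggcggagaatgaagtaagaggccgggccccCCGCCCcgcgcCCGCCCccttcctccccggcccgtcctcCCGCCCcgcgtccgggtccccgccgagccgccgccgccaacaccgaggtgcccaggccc
Mcl1: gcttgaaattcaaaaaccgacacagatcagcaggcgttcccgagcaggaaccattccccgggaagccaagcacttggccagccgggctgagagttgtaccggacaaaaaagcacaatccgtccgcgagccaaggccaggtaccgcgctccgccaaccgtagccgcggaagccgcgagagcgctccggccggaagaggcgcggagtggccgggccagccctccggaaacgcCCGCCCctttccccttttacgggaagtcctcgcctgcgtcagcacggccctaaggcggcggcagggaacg
Bax: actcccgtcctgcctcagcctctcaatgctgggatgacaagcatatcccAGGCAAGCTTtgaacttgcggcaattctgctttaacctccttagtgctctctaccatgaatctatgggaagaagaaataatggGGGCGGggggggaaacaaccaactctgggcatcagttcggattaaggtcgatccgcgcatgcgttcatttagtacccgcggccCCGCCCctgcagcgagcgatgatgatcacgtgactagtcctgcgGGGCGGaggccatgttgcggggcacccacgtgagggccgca
The Bcl2 window was 76.0% G and C and held 7 GC boxes, the Mcl1 window 65.7% with 1, and the Bax window 57.3% with 3, against a median of 52.7% G and C over all promoter windows. A GC box was present in 35.7% of the 32851 windows. The Bax window held 1 match to the p53 half-site consensus, which was present in 8.36% of windows. None of the 3 windows held CCAAT (37.4% of windows), TATAAA (13.6%) or the cAMP response element TGACGTCA (1.79%) on either strand. The motifs did not overlap each other in these windows. These matches describe letters in a window and say nothing of binding.

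Library quality and cell identity were checked before the members were compared. Within a group, FL-LSKCD201+ replicate 1, BM-LSKCD201+ replicate 1, D5-LSKCD201- replicate 2 and 3D+OP9 replicate 3 each lay 2.42 to 3.16 times as far from the other replicates as those lay from each other, as Euclidean distance on log2 values. The sort genes Procr, Kit and Ly6a summed to 162 to 171 FPKM in D5-LSKCD201+ and 58.5 to 69.1 in D5-LSKCD201-. Their sum was 146.2 to 180.5 FPKM in FL-LSKCD201+ and 425 to 460 in BM-LSKCD201+. The 5 hematopoietic markers Ptprc, Spi1, Coro1a, Vav1 and Laptm5 summed to 43.8 to 47.5 FPKM in D5-LSKCD201+, against 1235 to 1454 in FL-LSKCD201+ and 1549 to 1775 in BM-LSKCD201+. Ptprc, which encodes the pan-leukocyte antigen CD45, was at 0.305 to 0.602 FPKM in D5-LSKCD201+ and at 64.3 to 71.6 in BM-LSKCD201+. The 5 endothelial markers Cdh5, Pecam1, Tek, Kdr and Egfl7 summed to 1040 to 1064 FPKM in D5-LSKCD201+ and 207 to 255 in BM-LSKCD201+, where Cdh5 was listed at 0 in at least 1 library. D5-LSKCD201- still held pluripotency RNA (Pou5f1, Nanog, Sox2, Esrrb and Zfp42, 618 to 673 FPKM in sum, against 1162 to 1196 in mESC and 5.67 to 5.94 in D5-LSKCD201+). Many markers are near 0 in one group and passed the filter on low values only through the other, so their counts below are descriptions. Groups are called by their sort label, and the part of these other cell types in each result was not tested. In such bulk samples, fewer cells of a type and less RNA per cell cannot be told apart.

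Among the pro-survival genes, Bcl2 went from near absence in pluripotent cells to its highest level in adult marrow. Bcl2 (ENSMUSG00000057329, chr1:106538178-106714274) was at 0.130, 0.108 and 0.123 FPKM in the 3 mESC libraries, and D5-LSKCD201- held 0.490, 0.276 and 0.615. D5-LSKCD201+ held 2.88, 2.87 and 3.19 FPKM, FL-LSKCD201+ 2.41, 2.71 and 3.25, and BM-LSKCD201+ 5.46, 5.63 and 5.62. The D5-LSKCD201+ and FL-LSKCD201+ libraries overlapped, and every other neighbouring pair of groups was separate. The mean in D5-LSKCD201+ was 24.75 times that of mESC, and that of BM-LSKCD201+ 46.3 times. Both ratios divide by a mESC mean of 0.120 FPKM, whose counting error is unknown, so their size is uncertain.

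Bcl2l1, which encodes BCL-XL, ran in another order and was highest in the day 5 LSK fractions. Bcl2l1 (ENSMUSG00000007659, chr2:152780668-152831728) was at 53.6, 51.4 and 51.2 FPKM in D5-LSKCD201+, and the D5-LSKCD201- libraries lay just below at 50.3, 43.3 and 50.5. It was at 38.5, 35.2 and 31.9 FPKM in FL-LSKCD201+, 30.5, 33.7 and 31.9 in mESC and 18.0, 17.3 and 18.9 in BM-LSKCD201+. Fetal liver and mESC libraries overlapped, and bone marrow lay below all others. The FPKM do not separate the long, pro-survival transcript of this gene from its short, pro-apoptotic one.

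Mcl1, whose deletion is known to deplete blood stem cells, was the pro-survival gene with the widest spread in FPKM. Mcl1 (ENSMUSG00000038612, chr3:95658788-95663176) was at 119.5, 135 and 139 FPKM in BM-LSKCD201+, and FL-LSKCD201+ held 47.7, 47.0 and 50.5. The mESC libraries held 33.9, 35.9 and 32.8 FPKM, those of D5-LSKCD201+ 16.3, 17.5 and 18.7, and those of D5-LSKCD201- 17.9, 13.3 and 17.0. The 2 fractions from culture overlapped at the bottom of the order, 8.16 times below bone marrow for the lower one, and the other neighbours were separate. Bcl2l2 (ENSMUSG00000089682, chr14:54883377-54888234) was near the lower limit of the data, with group means from 0.127 ± 0.053 FPKM (SD, n = 3) in mESC to 1.14 ± 0.21 in BM-LSKCD201+. In the sorted-cell table its locus is shared with Pabpn1 and the readthrough model Gm20521, so the reads given to Bcl2l2 are uncertain.

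**Figure D1:**
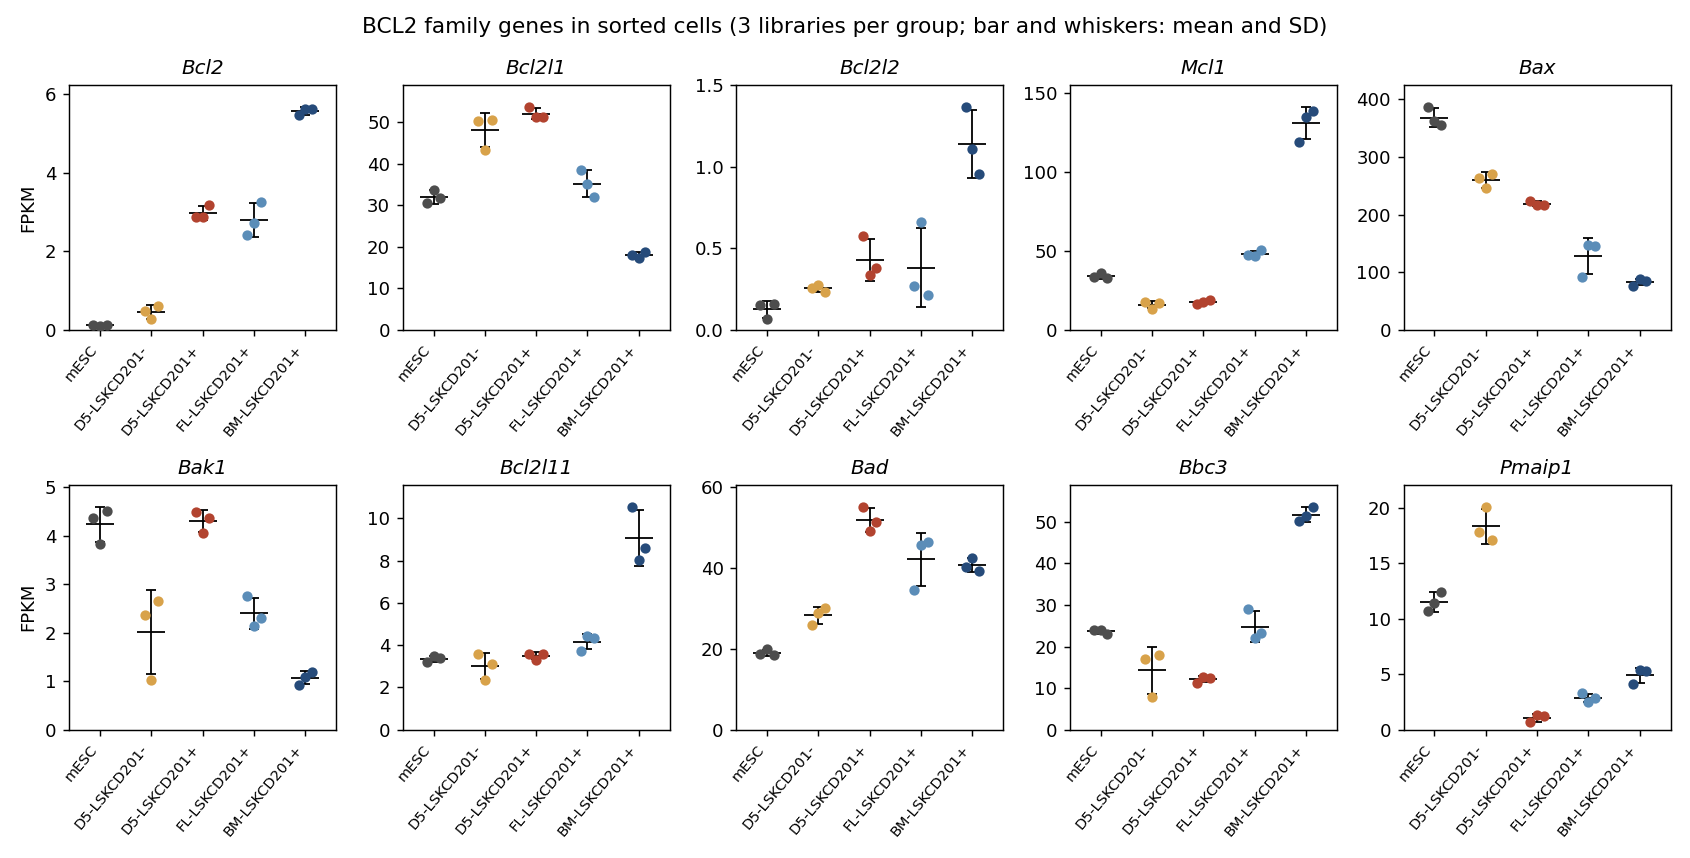
FPKM of each of the 10 genes (y axis, linear and from 0, own scale per panel) in the 5 sorted-cell groups (x axis). Points are single libraries, 3 per group, and the bar and whiskers are the mean and SD. Mcl1 and Bbc3 peak in BM-LSKCD201+ with means of 131 and 51.7 FPKM, Bcl2l1 and Bad in D5-LSKCD201+ with 52.1 and 51.9, Bax in mESC with 368.5 and Pmaip1 in D5-LSKCD201- with 18.3.

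Of the effectors, Bax was the most abundant member in each sorted group but BM-LSKCD201+. Bax (ENSMUSG00000003873, chr7:45461697-45466898) was at 386, 363 and 356 FPKM in mESC. D5-LSKCD201- held 263.6, 245 and 271 FPKM, above the 224, 216 and 217 of D5-LSKCD201+. FL-LSKCD201+ held 91.7, 147 and 145 FPKM and BM-LSKCD201+ 77.1, 88.1 and 85.5. All 5 groups were separate, although fetal liver replicate 1 lay much closer to bone marrow than the other fetal liver libraries did. That library also held the least erythroid marker RNA of its group, 4690.0 FPKM over the erythroid markers Hba-a1, Hbb-bh1, Epor and Klf1 against 9895 and 10770.0. Bak1 (ENSMUSG00000057789, chr17:27019810-27029009) was at 4.48, 4.05 and 4.38 FPKM in D5-LSKCD201+ and at 4.36, 3.83 and 4.51 in mESC. It was at 2.75, 2.13 and 2.31 FPKM in FL-LSKCD201+, 2.37, 1.02 and 2.66 in D5-LSKCD201- and 0.927, 1.096 and 1.19 in BM-LSKCD201+. Each neighbouring pair in that order overlapped except mESC and fetal liver. The low D5-LSKCD201- value is from replicate 2, which stood apart. In the sorted-cell table both effectors share a locus with other genes (Bak1 with Ggnbp1 and Zbtb9, Bax with 5 genes), as do Bcl2 (D630008O14Rik and Gm37053) and Bad (Gpr137), and reads could be divided among them.

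Among the BH3-only genes, Bbc3 and Bcl2l11 were highest in adult marrow, Bad was higher in the CD201+ groups than in the others, and Pmaip1 was highest in D5-LSKCD201- and mESC. Bbc3, which encodes PUMA (ENSMUSG00000002083, chr7:16308393-16318205), was at 50.2, 51.5 and 53.6 FPKM in BM-LSKCD201+. It was at 29.2, 22.1 and 23.3 FPKM in FL-LSKCD201+, 23.96, 24.01 and 23.0 in mESC. The D5-LSKCD201- libraries held 17.1, 7.76 and 18.1 FPKM and those of D5-LSKCD201+ 11.3, 12.7 and 12.3. Only bone marrow at the top and the step from mESC to D5-LSKCD201- were separate from their neighbours. Bcl2l11, which encodes BIM (ENSMUSG00000027381, chr2:128126038-128162547), was at 10.5, 8.01 and 8.61 FPKM in BM-LSKCD201+, with FL-LSKCD201+ next at 3.75, 4.43 and 4.32. The other 3 groups ran from 2.34 to 3.61 FPKM and overlapped.

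Bad, whose product is switched off by growth factor signalling, was lowest in mESC and highest in D5-LSKCD201+. Bad (ENSMUSG00000024959, chr19:6941861-6951899) was at 18.9, 19.9 and 18.4 FPKM in mESC and at 25.9, 28.9 and 30.1 in D5-LSKCD201-, while D5-LSKCD201+ held 55.2, 49.2 and 51.4. FL-LSKCD201+ held 34.5, 45.7 and 46.4 FPKM and BM-LSKCD201+ 40.4, 42.6 and 39.2, and these were the only neighbours that overlapped. Pmaip1, which encodes NOXA (ENSMUSG00000024521), had the widest range of group means on the log2 scale, 3.22. It was at 17.9, 20.1 and 17.1 FPKM in D5-LSKCD201-, 10.7, 11.4 and 12.4 in mESC and 4.14, 5.35 and 5.27 in BM-LSKCD201+. It was at 3.27, 2.52 and 2.89 FPKM in FL-LSKCD201+ and 0.689, 1.33 and 1.24 in D5-LSKCD201+. All 5 groups were separate, and the D5-LSKCD201- mean was 16.9 times that of D5-LSKCD201+.

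Read together, the 4 pro-survival genes gave make-ups that differed between the groups. The cultured LSK fractions were apart from each other in the small Bcl2 share alone. Mcl1 supplied 82.8%, 84.9% and 84.5% of their summed FPKM in the BM-LSKCD201+ libraries and 53.6%, 54.9% and 58.8% in FL-LSKCD201+. In D5-LSKCD201+ it supplied 22.2%, 24.2% and 25.5%, and Bcl2l1 supplied 73.0%, 71.3% and 69.7%. D5-LSKCD201- overlapped it in both shares, with Bcl2l1 at 73.0%, 75.8% and 73.9%, and mESC stood near parity, with Bcl2l1 at 47.1%, 48.3% and 49.1%. Bcl2 supplied 3.92%, 3.99% and 4.34% in D5-LSKCD201+ against 0.711%, 0.482% and 0.900% in D5-LSKCD201-. The ratio of Mcl1 to Bcl2l1 thus ran from 0.305 to 0.366 in D5-LSKCD201+ and from 6.64 to 7.81 in BM-LSKCD201+. The sum itself was 144 to 164 FPKM in BM-LSKCD201+, 85.6 to 88.9 in FL-LSKCD201+ and 57.2 to 73.5 in the other 3 groups.

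The ratio of Bax plus Bak1 to the pro-survival sum fell from pluripotent to adult cells. It was 6.04, 5.26 and 5.55 in mESC, 3.86, 4.31 and 4.005 in D5-LSKCD201-, and D5-LSKCD201+ had 3.11, 3.06 and 3.01. It was 1.06, 1.74 and 1.72 in FL-LSKCD201+ and 0.541, 0.561 and 0.528 in BM-LSKCD201+, so no 2 groups overlapped. The summed BH3-only genes against the same sum ran from 0.650 to 0.729 in BM-LSKCD201+, below each other library, and from 0.795 to 1.03 in the other 4 groups. What filled that BH3-only sum differed: Bad was 74.0% to 77.9% of it in D5-LSKCD201+, Bbc3 47.7% to 50.3% in BM-LSKCD201+, and Pmaip1 25.0% to 34.0% in D5-LSKCD201- but 0.973% to 1.99% in D5-LSKCD201+. These are ratios of RNA and carry no test. Bax, Bak1, Bcl2, Bcl2l2 and Bad share loci with other genes in the sorted-cell values, so the sums and ratios that hold them are uncertain.

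**Figure D2:**
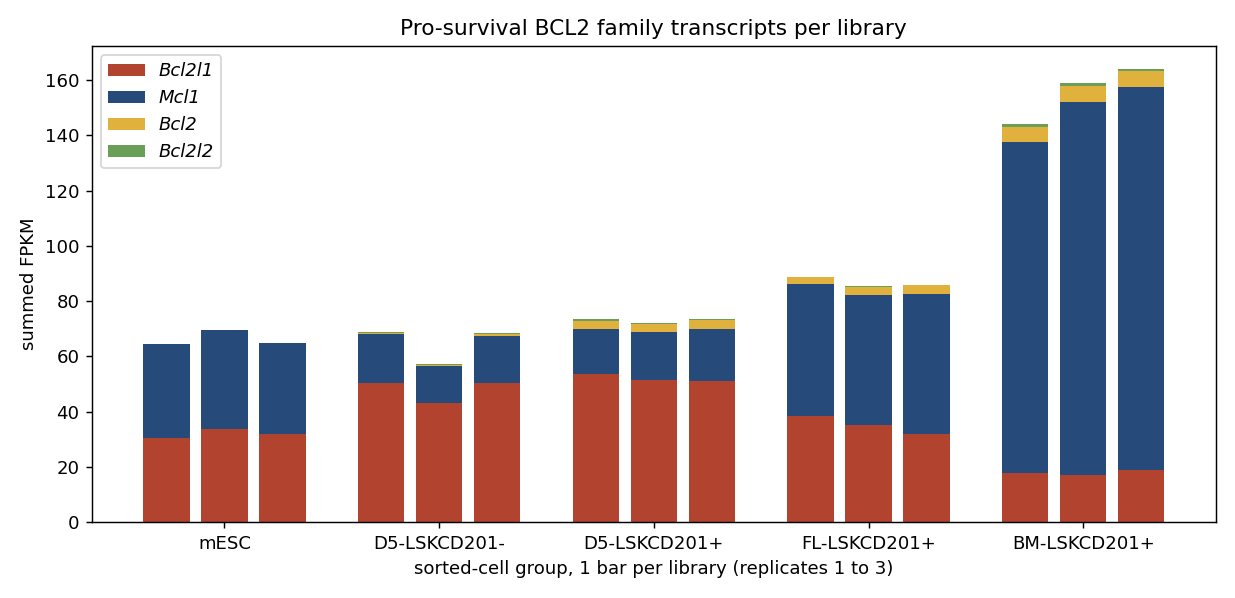
Summed FPKM of the 4 pro-survival genes (y axis, linear and from 0) in each sorted-cell library (1 bar per library, 5 groups of 3), coloured by gene. Bcl2l1 fills 69.7% to 75.8% of the bars of the cultured LSK fractions and Mcl1 82.8% to 84.9% of the bone marrow bars.

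Across the 15 sorted-cell libraries, which form 5 groups of 3, some members followed each other closely on the log2 scale. Mcl1 went with Bbc3 (Pearson r = 0.954) and Bcl2l11 (r = 0.902) and against Bcl2l1 (r = -0.949), and Bcl2 went against Bax (r = -0.871). The 3 genes most like each member among 14457 expressed genes were Maml2, Hlx and Arpc2 for Bcl2 (r = 0.993 to 0.996), Lgmn, Fam64a and Igf2bp2 for Bcl2l1 (0.976 to 0.982) and Neat1, Csrnp1 and Nceh1 for Mcl1 (0.983 to 0.992). For the effectors they were Ssr2, Cfdp1 and Gm13167 for Bax (0.989 to 0.992) and Nras, Twf1 and Anapc1 for Bak1 (0.929 to 0.931). For the BH3-only genes they were Gm26910, Zfr2 and Slfn10-ps for Bcl2l11 (0.976 to 0.979), L3mbtl3, Tpm3 and Brk1 for Bad (0.984 to 0.985), Atn1, Rhobtb2 and Gpbp1l1 for Bbc3 (0.9747 to 0.988) and Perp, Stk38 and Bspry for Pmaip1 (0.982 for the first). With so few groups, these values mostly restate the order of the group means.

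The first comparison asked whether stromal coculture moved these genes in total cells of day 5, and none of the 10 was called. Differences were tested with limma on log2(FPKM + 1) where a gene's mean reached 0.5 FPKM, a scale on which changes of weakly expressed genes are understated. A call required a Benjamini-Hochberg adjusted p under 0.05 together with a log2 fold change of 1 or more in either direction. Bcl2l2 was under the filter in each sorted-cell comparison without bone marrow, and Bcl2 in that of D5-LSKCD201- with mESC. Of the 12958 genes tested, 2.11% were called higher in 3D+OP9 and 0.509% lower. Without the fold threshold, 0 of 10 members had an adjusted p under 0.05, against 6.88% of all genes, and 2 had an unadjusted p under 0.05, against 22.9%. These were Bad and Bax. Bad was at 8.67, 8.35 and 7.90 FPKM in 3D+OP9 and 5.16, 6.16 and 7.65 in 3D+0.1%gel, without overlap (log2 fold change 0.36, SE 0.14, adjusted p 0.181). Bax was at 135, 141 and 169 FPKM in 3D+OP9 and 171, 181 and 169 in 3D+0.1%gel (log2 fold change -0.23, SE 0.09, adjusted p 0.198). Its high 3D+OP9 value is replicate 3, which stood apart, and without it the log2 fold change was -0.33 (adjusted p 0.0225). Mcl1 was at 95.5, 92.3 and 122 FPKM against 88.6, 98.7 and 84.0, and Bbc3 at 32.1, 37.1 and 38.1 against 35.1, 48.0 and 53.2. The 95% intervals of the 10 log2 fold changes lay between -0.68 and 0.69. The median was -0.03 for the members and 0.01 for all genes.

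In these total cells Mcl1 supplied 76.0% to 81.4% of the pro-survival FPKM in 3D+OP9 and 73.9% to 80.4% in 3D+0.1%gel. The ratio of Bax plus Bak1 to the pro-survival sum was 1.68, 1.77 and 1.63 in 3D+OP9 against 2.19, 2.08 and 2.23 in 3D+0.1%gel, and that of the BH3-only sum 0.581, 0.611 and 0.506 against 0.632, 0.693 and 0.801. Both ratios were lower in 3D+OP9 without overlap, and they carry no test. The table was normalized apart from the sorted-cell table and its levels are not set against those. Bak1 was listed at 73.8 to 85.1 FPKM in all 6 coculture libraries, while its group means in sorted cells ran from 1.07 to 4.30. Bcl2l2 means were 4.32 in 3D+OP9 and 3.63 in 3D+0.1%gel, and 0.127 to 1.14 in sorted cells. The annotation and genome build behind the coculture values are unclear. In the sorted-cell values the locus given to Bak1 spans 63212 bases against 9200 for the gene, and that of Bcl2l2 14793 against 4858. The levels of both genes, and the coculture and sorted-cell sums and ratios that hold them, are therefore uncertain. Most endothelial and stromal markers tested were called higher in 3D+OP9, and their part in the member values was not tested. Endothelial markers were called higher for 4 of 5 genes (sum 98.8 to 120 against 22.2 to 37.0 FPKM), erythroid for 2 of 4 (142.5 to 493 against 4.38 to 14.8) and stromal for 3 of 5 tested (47.6 to 57.4 against 19.2 to 29.1), while Ptprc was listed at 0 in at least 1 library of each group. Of 3 hematopoietic markers tested, 2 were called higher in 3D+OP9, the myeloid factor Spi1 (means of 2.49 against 0.263 FPKM) and the leukocyte gene Laptm5 (6.40 against 0.337), which both passed the filter only through 3D+OP9. The third, Coro1a, lay the other way without overlap, at 1.54 to 3.38 against 4.09 to 4.61 FPKM, and was not called (adjusted p 0.0786 by limma). The sum of all 5 was 9.42 to 14.4 against 4.83 to 5.20 FPKM. Pluripotency markers summed to 502 to 764 FPKM in 3D+OP9 and 830 to 910 in 3D+0.1%gel, although Esrrb and Zfp42 were called higher in 3D+OP9.

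**Figure D3:**
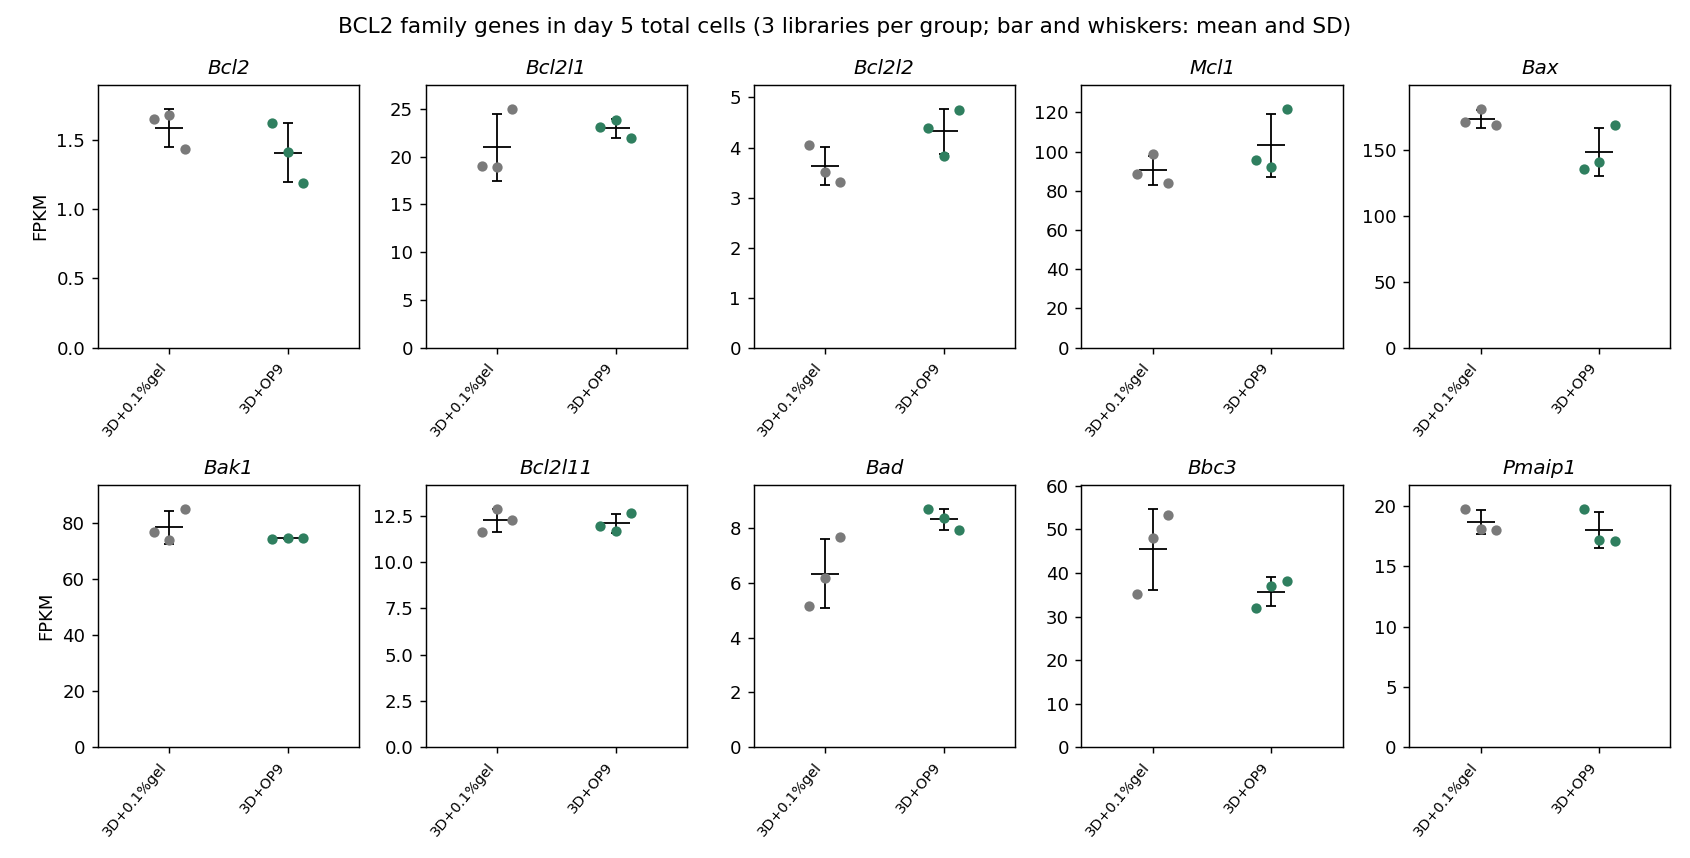
FPKM of each of the 10 genes (y axis, linear and from 0) in day 5 total cells of 3D+0.1%gel and 3D+OP9 (x axis). Points are single libraries, 3 per group, with the mean and SD. None of the 10 genes was called between the groups. Bad lies at 7.90 to 8.67 FPKM in 3D+OP9 and 5.16 to 7.65 in 3D+0.1%gel.

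Within the stromal coculture, CD201+ and CD201- fractions differed most in Pmaip1 and Bcl2. Pmaip1 was lower in D5-LSKCD201+, at -3.22 on the log2 scale (SE 0.15, adjusted p 1.8e-06), and Bcl2 was higher by 1.45 (SE 0.11, adjusted p 2.5e-05). Bcl2 passed the filter on low values only through D5-LSKCD201+. So 1 of 9 members tested was called higher and 1 lower, where 10.8% and 13.9% of the 13691 genes tested were. With the adjusted p alone 5 of 9 passed, against 68.3% of all genes. The other 3 were Bad (0.85, SE 0.08, adjusted p 5.2e-05), Bak1 (0.86, SE 0.22, adjusted p 0.0109) and Bax (-0.25, SE 0.05, adjusted p 0.00542, or 0.130 in one limma fit over the 5 groups). The 95% interval of Mcl1 ran from -0.15 to 0.41 and that of Bcl2l1 from -0.06 to 0.29. Bbc3 moved by -0.14 with an interval from -0.82 to 0.53, and D5-LSKCD201- replicate 2 held 7.76 FPKM where the others held 17.1 and 18.1. Without that library it was -0.50 (adjusted p 3.0e-04). Bcl2l11 was at 0.17 (adjusted p 0.279), or 0.30 (adjusted p 0.0410) under quantile normalization. The median was 0.13 for the members tested and -0.12 for all genes. Pluripotency markers were lower in D5-LSKCD201+ for 5 of 5 genes and erythroid markers for 3 of 4, with 1 higher, while endothelial markers were higher for 5 of 5, hematopoietic for 2 of 5 and stromal for 2 of 6. Their part in these values was not tested.

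Against the mESC they came from, D5-LSKCD201+ cells had more Bcl2 and Bad and less Pmaip1. The log2 fold changes were 1.83 for Bcl2 (SE 0.08, adjusted p 2.5e-08), 1.40 for Bad (SE 0.05, adjusted p 1.6e-08) and -2.60 for Pmaip1 (SE 0.13, adjusted p 7.8e-08). Thus 2 of 9 members tested were called higher and 1 lower, beside 19.5% and 18.1% of the 13441 genes tested, and 7 of 9 passed on the adjusted p, beside 85.5%. Bcl2 again passed the filter only through D5-LSKCD201+. Below the fold threshold, Bcl2l1 rose by 0.69 (SE 0.05), while Mcl1 fell by 0.93 (SE 0.06), Bbc3 by 0.91 (SE 0.06) and Bax by 0.75 (SE 0.04), with adjusted p from 1.0e-07 to 8.3e-07. Bak1 (0.02, 95% interval -0.17 to 0.20) and Bcl2l11 (0.04, -0.12 to 0.21) had intervals that held 0. Pluripotency markers were lower in D5-LSKCD201+ for 5 of 5 genes, while endothelial markers were higher for 5 of 5, stromal for 5 of 6, erythroid for 2 of 3 tested and hematopoietic for 1 of 4 tested, and their part in these values was not tested.

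D5-LSKCD201- cells shared the fall of Mcl1 and differed in Pmaip1. Mcl1 lay below mESC at -1.05 (SE 0.11, adjusted p 2.0e-04), the only member called of 8 tested. Without D5-LSKCD201- replicate 2 it was -0.93 and under the fold threshold. Of the 13596 genes tested, 10.9% were called higher, 3.48% lower and 54.6% passed on the adjusted p, as did 7 of 8 members. Pmaip1 was higher than in mESC by 0.63 (SE 0.09, adjusted p 0.00102), Bcl2l1 by 0.57 (SE 0.08) and Bad by 0.54 (SE 0.08). Bax fell by 0.50 (SE 0.06), Bak1 by 0.84 (SE 0.22) and Bbc3 by 0.77 (SE 0.28, adjusted p 0.0497). Without D5-LSKCD201- replicate 2, which stood apart, Bbc3 was at -0.41 (adjusted p 2.6e-04). Its adjusted p was 0.110 to 0.122 without any 1 of the mESC libraries, 0.0542 with a pseudocount of 0.1, 0.0958 with no filter and 0.0513 with a filter at 1 FPKM, and that of Bak1 0.0528 without mESC replicate 1 and 0.0547 without replicate 3. Bcl2l11 was at -0.13 (adjusted p 0.443), or -0.40 (adjusted p 0.0201) under quantile normalization. Pluripotency markers were lower for 2 of 5 genes, while stromal markers were higher for 4 of 5 tested, endothelial for 3 of 5, erythroid for 2 of 4 and hematopoietic for 1 of 4 tested, and their part in these values was not tested. The 2 comparisons share the mESC libraries, so they are not independent.

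**Figure D4:**
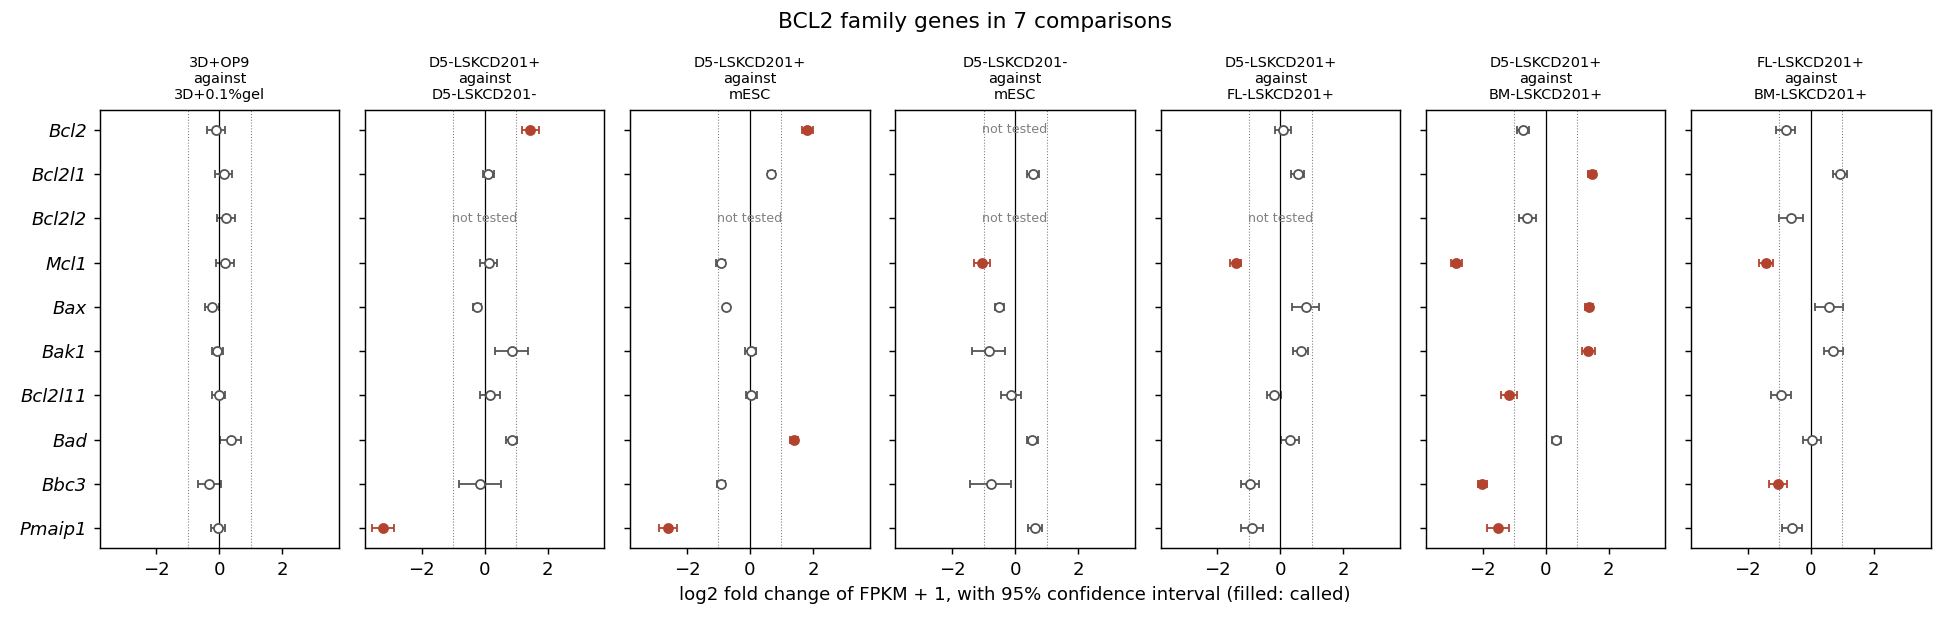
Log2 fold change of FPKM + 1 (x axis) with its 95% confidence interval for each of the 10 genes (y axis) in the 7 comparisons (panels). Filled points are called, dotted lines mark a log2 fold change of 1 in either direction, and genes under the filter are marked as not tested. Pmaip1 lies at -3.22 and -2.60 in D5-LSKCD201+ against D5-LSKCD201- and mESC, and Mcl1 at -2.83 against BM-LSKCD201+.

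Next, the cultured CD201+ cells were set against the same phenotype from embryo and adult. Compared with FL-LSKCD201+, D5-LSKCD201+ had less Mcl1 (-1.42, SE 0.08, adjusted p 4.6e-06). It was the only member called of 9 tested, and 6 passed on the adjusted p. The background shares were 15.1% called higher, 19.6% lower and 72.1% on the adjusted p among 13627 genes. Bbc3 (-0.97, SE 0.12, adjusted p 2.6e-04) and Pmaip1 (-0.91, SE 0.15, adjusted p 0.00127) came close to the fold threshold. In the other direction Bax was higher by 0.80 (SE 0.18, adjusted p 0.00634), Bak1 by 0.65 (SE 0.10, adjusted p 9.1e-04) and Bcl2l1 by 0.55 (SE 0.08, adjusted p 9.1e-04). Bcl2 (0.08, 95% interval -0.18 to 0.33) and Bcl2l11 (-0.20, -0.41 to 0.02) had intervals that held 0, and Bad was at 0.30 (adjusted p 0.0637, or 0.0149 in one limma fit over the 5 groups). Without FL-LSKCD201+ replicate 1, the values were -0.26 for Bcl2l11 (adjusted p 0.0140) and 0.17 for Bad (adjusted p 0.0194). Hematopoietic markers were lower in D5-LSKCD201+ for 5 of 5 genes and erythroid markers for 3 of 4, while endothelial markers were higher for 4 of 5 and stromal markers for 4 of 6. Their part in these values was not tested.

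The gap to adult marrow was wider and included both arms of the family. Compared with BM-LSKCD201+, D5-LSKCD201+ had more Bcl2l1 (log2 fold change 1.48, SE 0.05), Bax (1.38, SE 0.06) and Bak1 (1.36, SE 0.09), with adjusted p from 1.7e-07 to 4.5e-06. It had less Mcl1 (-2.83, SE 0.08, adjusted p 3.6e-08), Bbc3 (-2.01, SE 0.06, adjusted p 6.5e-08), Pmaip1 (-1.51, SE 0.15, adjusted p 4.8e-05) and Bcl2l11 (-1.15, SE 0.11, adjusted p 3.0e-05). The call of Bcl2l11 was lost under quantile normalization (-0.80). Thus 3 of 10 members were called higher and 4 lower, beside 17.5% and 27.2% of 13775 genes, and all 10 passed on the adjusted p, beside 83.4%. Bcl2l2 entered this test through bone marrow alone. Bcl2 fell by 0.72 (SE 0.08) and Bcl2l2 by 0.58 (SE 0.11), and Bad rose by 0.34 (SE 0.06). The median was -0.65 for the members and -0.23 for all genes tested. Hematopoietic markers were lower in D5-LSKCD201+ for 5 of 5 genes and endothelial markers higher for 5 of 5, with the sums given above. Stromal markers were higher for 5 of 6 (85.7 to 90.5 against 6.42 to 6.83 FPKM, with Lum at 0 in bone marrow). Erythroid markers went both ways, higher for 2 of 4 and lower for 2, and the sort genes were lower for 3 of 3. Their part in the member values was not tested.

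Fetal liver itself differed from adult marrow in the same pro-survival gene. In FL-LSKCD201+, both Mcl1 (-1.42, SE 0.09, adjusted p 2.5e-05) and Bbc3 (-1.04, SE 0.12, adjusted p 3.0e-04) were lower than in BM-LSKCD201+. The call of Bbc3 was lost without FL-LSKCD201+ replicate 2 (-0.96) or replicate 3 (-0.9996). So 0 of 10 members were called higher and 2 lower, beside 7.78% and 11.3% of 13503 genes, and 9 of 10 passed on the adjusted p, beside 55.1%. Below the fold threshold, Bcl2l1 was higher by 0.93 (SE 0.10), Bak1 by 0.71 (SE 0.13) and Bax by 0.58 (SE 0.19, adjusted p 0.0322), and Bcl2l11 fell by 0.96 (SE 0.13), Bcl2 by 0.80 (SE 0.12), Bcl2l2 by 0.64 (SE 0.16) and Pmaip1 by 0.60 (SE 0.14). Bcl2l2 entered this test through bone marrow alone, and its adjusted p was 0.0509 without FL-LSKCD201+ replicate 3. The adjusted p of Bax was 0.0648 to 0.103 without FL-LSKCD201+ replicate 2 or 3 or any 1 bone marrow library, and 0.0672 with no filter. Bad was at 0.04 with a 95% interval from -0.26 to 0.34, or 0.17 (adjusted p 0.0401) without FL-LSKCD201+ replicate 1. Erythroid markers were higher in fetal liver for 4 of 4 genes (4690.0 to 10770.0 against 55.45 to 80.1 FPKM, with Hbb-bh1 at 0 in at least 1 bone marrow library). Endothelial markers were higher for 2 of 5 and hematopoietic markers lower for 1 of 5. Of 3 stromal markers tested, 1 was higher and 1 lower, and the sort genes were lower for 2 of 3. The cells were sorted as lineage-negative, a gate meant to remove mature blood cells, and the part of these markers in the values was not tested.

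The rest of the pathway was read from lists of other BCL2 family genes (17), caspases and mitochondrial genes (16), death receptor genes (8), p53 axis genes (15) and regulators of MCL1 and BIM (12). Counts of calls stand beside the shares of all genes tested. Against D5-LSKCD201-, 4 of 8 death receptor genes were called higher in D5-LSKCD201+ and none lower, led by the TNF receptor Tnfrsf1a (2.86), the initiator Casp8 (2.41) and the kinase Ripk1 (1.26), and all 8 had an adjusted p under 0.05. Of all genes, 10.8% were called higher there and 68.3% passed on the adjusted p. Against mESC, 6 of 8 were higher, beside 19.5% of all genes, led by Tnfrsf1a (4.98), Casp8 (3.56) and Fas (1.67). Casp8 reached 62.4 ± 3.1 FPKM (SD, n = 3) in D5-LSKCD201+, 4.39 ± 0.46 in mESC and 11.05 ± 2.27 in D5-LSKCD201-, and was at 80.4 ± 4.2 in BM-LSKCD201+. The list's median log2 fold change was 0.99 against D5-LSKCD201- and 1.499 against mESC, beside -0.12 and -0.07 for all genes. Against the tissue cells, Fas (1.76 against fetal liver, 1.58 against marrow) and Tnfrsf10b (1.48 and 1.65), both death receptors, were higher and the adaptor Tradd lower than in marrow (-1.24). These are 2 of 8 higher in each, beside 15.1% and 17.5% of all genes, and 1 lower, beside 27.2%. Between fetal liver and marrow none was called, and 3 of 8 passed on the adjusted p by limma as on the unadjusted one, beside 55.1% of all genes on the adjusted p. D5-LSKCD201- cells had 2 of 8 higher than mESC, beside 10.9% of all genes, Tnfrsf1a (2.12) and Casp8 (1.15), the latter under the fold threshold without D5-LSKCD201- replicate 2 (0.998) and under quantile normalization (0.938). Endothelial markers, which rose for 5 of 5 genes in the same 2 comparisons of D5-LSKCD201+, moved with this list, and their part was not tested.

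Among caspases and mitochondrial genes, Diablo, an antagonist of the caspase inhibitor XIAP, was lower in the CD201+ fraction of the culture than in the CD201- fraction (-1.04), the only call of 16 genes there, where 13.9% of all genes were called lower, and 12 passed on the adjusted p by limma, beside 68.3% of all genes. Without D5-LSKCD201- replicate 3 there were 2 calls. Against mESC, 3 of the 16 were higher and none lower, namely the executioner Casp6 (2.27), the initiator Casp9 (1.40) and the inhibitor Xiap (1.17), where 19.5% of all genes were called higher. Without D5-LSKCD201+ replicate 3 the list had 6 calls. Against marrow 5 were higher and 5 lower, led by the mitotic inhibitor of apoptosis Birc5 (3.02), Birc3 (-1.61) and cytochrome c, Cycs (1.56), beside 17.5% and 27.2% of all genes, and against fetal liver 2 and 2, beside 15.1% and 19.6%, led by Htra2 (-1.59), Casp9 (1.22) and Apaf1 (1.05). Apaf1 fell under the fold threshold without D5-LSKCD201+ replicate 1 (0.98). The list then had 2 calls, so Apaf1 was not the only gene to lose its call. Fetal liver also had more Birc5 (3.08) and Cycs (1.26) than marrow, 2 calls of 16 where 7.78% of all genes were called higher, which became 4 without FL-LSKCD201+ replicate 1. D5-LSKCD201- had 1 gene higher than mESC, Casp6 (1.43), beside 10.9% of all genes, and the list 2 calls without D5-LSKCD201- replicate 2.

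Other BCL2 family genes moved in both directions. Bid, which links CASP8 to mitochondria, was at 12.1 ± 0.6 FPKM in D5-LSKCD201+ and between 37.4 and 41.8 on average in the other 4 groups, with log2 fold changes of -1.61 against D5-LSKCD201-, -1.71 against mESC, -1.60 against fetal liver and -1.55 against marrow. Bik, a BH3-only gene, was higher in D5-LSKCD201+ (5.24 ± 0.27 FPKM) than in D5-LSKCD201- (log2 fold change 1.60), mESC (1.92) and fetal liver (2.36), and was listed at 0 in bone marrow. Its mean in fetal liver was 0.222 FPKM, so it entered that test only through D5-LSKCD201+. Bcl2l14 was lower than in D5-LSKCD201- (-2.70), fetal liver (-2.37) and marrow (-2.79), and entered each of these tests only through the other group, being at 0.102 FPKM or less in the D5-LSKCD201+ libraries. Bnip3 was higher than in fetal liver (2.56) and marrow (2.36), and in D5-LSKCD201- than in mESC (2.56). The effector relative Bok was higher in fetal liver than in marrow (2.01) and the pro-survival Bcl2a1d lower (-1.43). Bcl2a1d has near-identical copies among which reads can be split, so its values are uncertain, and with a mean of 0.484 FPKM in fetal liver it entered the test only through marrow. In all, 2 of 11 tested were higher and 2 lower against D5-LSKCD201- (10.8% and 13.9% of all genes), 4 and 1 of 10 against mESC (19.5% and 18.1%), 3 and 4 of 12 against fetal liver (15.1% and 19.6%) and 5 and 5 of 14 against marrow (17.5% and 27.2%). D5-LSKCD201- had 3 of 11 higher than mESC and none lower (10.9% and 3.48%), and fetal liver 1 of 12 higher and 1 lower than marrow (7.78% and 11.3%), a count near the share of all genes. Among the calls against the tissue cells, Bcl2a1b, and Bmf against fetal liver, too passed the filter through 1 group alone. Bcl2a1d likewise entered the test of D5-LSKCD201+ against marrow through marrow alone, with means of 0.0229 and 2.95 FPKM.

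The p53 axis was lower in D5-LSKCD201+ than in mESC for 7 of 15 genes and higher for none, led by Perp (-2.68), Trp53inp1 (-1.48) and Aen (-1.36), with a list median of -0.95. Of all genes, 18.1% were called lower there and 19.5% higher, with a median of -0.07. Perp was also the largest change against D5-LSKCD201- (-3.21), where 2 were lower and none higher (13.9% and 10.8% of all genes), the other being Sesn2 (-1.01), which fell under the fold threshold without D5-LSKCD201+ replicate 1 (-0.99) and D5-LSKCD201- replicate 1 (-0.94) or 3 (-0.95), and under quantile normalization (-0.986). Perp, an apoptosis and adhesion gene, was the gene most like Pmaip1 above, and the CD201- fraction held 16.4 ± 1.8 FPKM of it against 0.875 ± 0.152 in the CD201+ fraction. Against the tissue cells, 6 were higher and 1 lower than in fetal liver, led by Sesn1 (-3.02), Phlda3 (2.15) and Eda2r (2.14), where 15.1% and 19.6% of all genes were. Against marrow the counts were 4 and 2, beside 17.5% and 27.2%, led by Sesn1 (-2.90), Eda2r (2.44) and Phlda3 (2.44). Eda2r was at a mean of 0.218 FPKM in marrow and entered that test only through D5-LSKCD201+. Fetal liver had less Cdkn1a, the p53-induced cell cycle inhibitor, than marrow (-2.30), its only call among 14 tested, where 11.3% of all genes were called lower, or 2 without FL-LSKCD201+ replicate 1. Between D5-LSKCD201- and mESC no gene of the list was called, while 12 of 15 had an adjusted p under 0.05 by limma, as they did unadjusted. Of these 12, 2 were higher in D5-LSKCD201- and the rest lower, and the list median was -0.34 against 0.05 for all genes. Of all genes, 10.9% were called higher there, 3.48% lower and 54.6% passed on the adjusted p. The list had 1 call without D5-LSKCD201- replicate 1 or 2 or mESC replicate 1.

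Of the regulators of MCL1 and BIM, 5 of 12 were lower in D5-LSKCD201+ than in marrow and none higher, led by Foxo3, a transcription factor that drives Bcl2l11 (-3.70), the stress factor Ddit3 (-3.19) and Stat5a, which relays cytokine signals (-2.98). The list median was -0.78, and of all genes 27.2% were called lower, with a median of -0.23. Against fetal liver 6 were lower and none higher, beside 19.6% called lower among all genes and a median of -0.99 against -0.16, led by Foxo3 (-2.93), the survival kinase Pim2 (-2.31) and Ddit3 (-2.16). Foxo3 was at 1.33 ± 0.11 FPKM in D5-LSKCD201+, 17.0 ± 3.2 in FL-LSKCD201+ and 29.6 ± 4.7 in BM-LSKCD201+. Against D5-LSKCD201- 3 were higher and 1 lower, beside 10.8% and 13.9% of all genes, led by Pim2 (-3.44), Stat3 (1.38) and Foxo1 (1.20), the last under the fold threshold without D5-LSKCD201- replicate 2 (0.99). Against mESC 2 were higher and 4 lower, beside 19.5% and 18.1%, led by Pim2 (-2.53), Pim1 (-2.20) and Stat5b (1.65). D5-LSKCD201- had less Pim1 than mESC (-1.36) and fetal liver less Ddit3 than marrow (-1.03), 1 call each of 12, where 3.48% and 11.3% of all genes were called lower. The Ddit3 call was lost without FL-LSKCD201+ replicate 1 (-0.86) and, at the fold threshold itself, without BM-LSKCD201+ replicate 2.

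**Figure D5:**
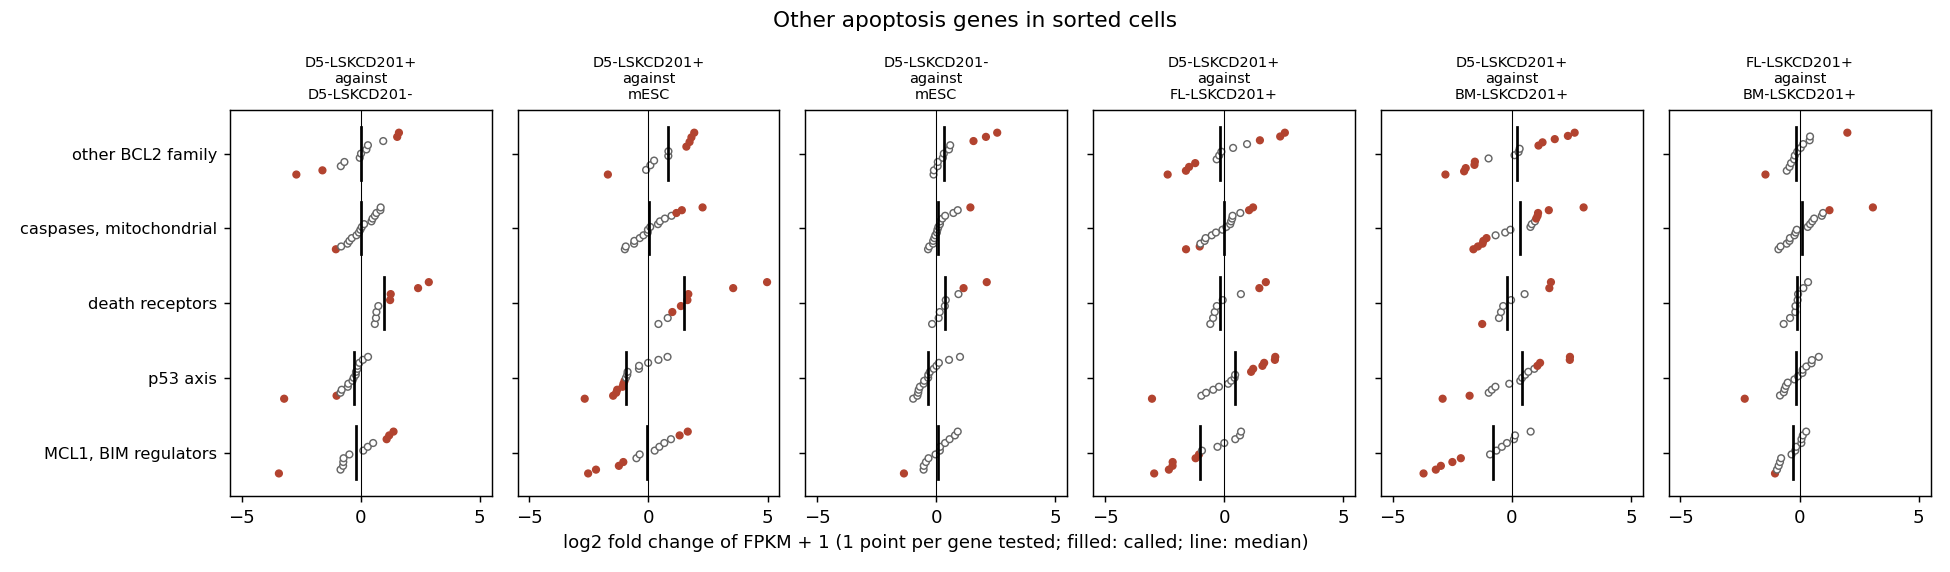
Log2 fold change of FPKM + 1 (x axis) of every gene tested in 5 apoptosis lists (rows) in the 6 sorted-cell comparisons (panels). Points are genes, filled where called, and the black line is the list's median. All death receptor genes lie above 0 against D5-LSKCD201- and mESC, with medians of 0.99 and 1.499, and the median of the regulators of MCL1 and BIM lies at -0.99 against FL-LSKCD201+.

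In total cells of day 5, 2 pathway genes were called between 3D+OP9 and 3D+0.1%gel, 1 higher and 1 lower, where 2.11% and 0.509% of all genes were. Stat3 was higher in 3D+OP9 by 1.46 (adjusted p 0.00276). Perp was lower, with a log2 fold change of -1.23 (adjusted p 0.0103), and its adjusted p was 0.0633 without 3D+0.1%gel replicate 2. No death receptor, caspase or other BCL2 family gene was called by limma with all libraries. Without 3D+OP9 replicate 3, which stood apart, 1 death receptor gene and 1 other BCL2 family gene were called, and the regulators had 2 calls. Without 3D+0.1%gel replicate 1 the p53 list had 3. On the adjusted p, 1 death receptor gene and 1 other BCL2 family gene passed, both lower, and 0 caspase genes, and the counts at an unadjusted p under 0.05 were 3 of 8, 3 of 11 and 1 of 16. For the p53 axis 2 of 15 passed on the adjusted p and 8 unadjusted, with a list median of -0.35 against 0.01 for all genes, and for the regulators 3 of 12 and 6. Among all genes 6.88% passed on the adjusted p and 22.9% unadjusted.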

How the data were processed

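The authors extracted RNA with TRIzol, made mRNA libraries (VAHTS mRNA-seq v2) and sequenced paired ends. Reads were aligned with HISAT2 2.0.5 to GRCm38 and assembled with StringTie 1.3.3, and Cuffdiff 1.3.0 was used for their tests; their notes also name mm9. The authors deposited FPKM in 2 tables normalized separately, the coculture one rounded and blank for 3578 genes. Strand, trimming and depth are not given in the sources used here, and no whole reads could be recovered, so single values carry no counting interval. FPKM summed to 483263 to 620332 per library. The study calls the sorted-cell replicates biological and describes its coculture work as independent experiments without naming these libraries. Where the origin of a library is not given, p-values measure the spread between samples, which may be technical.

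Here log2(FPKM + 1) was compared with limma 3.58.1 (trend, two-sided, R 4.3.3) where the mean reached 0.5 FPKM, with Benjamini-Hochberg adjustment over all genes tested. An exact permutation test of 3 against 3 libraries cannot go below 0.1 (two-sided). On simulated data with 200 genes changed by a log2 of 1.5, 94% were recovered in the coculture table (2.08% of calls false) and 95% in the sorted-cell table (0.524%). The changed genes were drawn only from those above a mean level higher than the filter, and the noise was normal and independent. Recovery of weakly expressed genes, several members among them, was therefore not tested. Gene positions are from GENCODE M21. All 10 members are named, with up to 3 called genes per list and comparison. Members and lists were chosen with earlier results of these data known. A few genes of these lists are not reported here and are left out of their counts and sums. By the data alone, same-numbered libraries correlated by more than 0.1 in all 3 pairs only for FL-LSKCD201+ with BM-LSKCD201+ (correlations of deviations 0.242, 0.202 and 0.159). For 3D+OP9 with 3D+0.1%gel the values were 0.182, 0.0724 and 0.291. Replicate 1 stood apart in both tissue groups, and its part in their correlations was not tested. No member call changed with the replicate block. Tried as well were 0.1 as pseudocount, a filter at 1 FPKM or none, quantile normalization, the replicate block, one fit over 5 groups and leaving out each library. Figures used Python 3.11.15 and matplotlib 3.10.9.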

Additional observations from a re-analysis of the deposited data

Results flagged for a closer look

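Pmaip1 moved in opposite directions in the 2 cultured fractions relative to mESC: the 3 D5-LSKCD201+ libraries lay below the mESC libraries (0.689 to 1.33 against 10.7 to 12.4 FPKM) and the 3 D5-LSKCD201- libraries above them (17.1 to 20.1 FPKM). The direct comparison of the fractions gave a log2 fold change of -3.22 (limma, adjusted p 1.8e-06), from -3.31 to -3.08 with each library left out in turn. D5-LSKCD201- also held pluripotency RNA, whose part in this value was not tested.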

How the results depend on the processing

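Of 65 member fold changes with a test, 738 of 768 values under an alternative kept direction and call. No call changed with the replicate block (member counts 0, 2, 3, 1, 1, 7 and 2 as in the main comparisons), in one fit over 5 groups or with the filter. Outside fetal liver against marrow, not every pair of same-numbered libraries correlated by more than 0.1. With a pseudocount of 0.1, all genes called in coculture were 531 (main 273 higher and 66 lower), and members called were 2 for D5-LSKCD201- against mESC (main 1), 3 for D5-LSKCD201+ against fetal liver (main 1) and 5 for fetal liver against marrow (main 2). Quantile normalization called 2 members for D5-LSKCD201- against mESC and turned Bcl2l11 (-0.0926) and Bak1 (-0.126) of D5-LSKCD201+ against mESC, which were not called. It moved the all-gene median from -0.12 to -0.02 for D5-LSKCD201+ against D5-LSKCD201-, 0.05 to -0.09 for D5-LSKCD201- against mESC, and, for D5-LSKCD201+, -0.16 to -0.06 against fetal liver and -0.23 to -0.03 against marrow, and -0.13 to -0.02 for fetal liver against marrow. The share of calls that were higher went from 75.7% to 61.1% for D5-LSKCD201- against mESC and from 39.1% to 49.1% for D5-LSKCD201+ against marrow.

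With each library left out in turn, members called ran from 0 to 2 for D5-LSKCD201- against mESC, 1 to 2 for D5-LSKCD201+ against fetal liver and 1 to 3 for fetal liver against marrow, and all genes called in coculture from 209 (without 3D+0.1%gel replicate 2) to 444. Uncalled values that changed sign ran from -0.0523 to 0.0169 (Bcl2l11, coculture), -0.503 to 0.0597 (Bbc3, D5-LSKCD201+ against D5-LSKCD201-), -0.0373 to 0.0579 (Bak1, D5-LSKCD201+ against mESC) and -0.034 to 0.173 (Bad, fetal liver against marrow). Bak1 of D5-LSKCD201+ against D5-LSKCD201- passed the fold threshold with a pseudocount of 0.1 (1.16), quantile normalization (1.04) and without D5-LSKCD201- replicate 3 (1.02). The cause of these shifts was not tested. For 71 named pathway gene results, 839 of 850 values kept their call and 11 lost it. Genes not called at first were not among these, and list counts also rose, for caspases of D5-LSKCD201+ against mESC from 3 to 6 with a pseudocount of 0.1. Depth is unknown, so levels near or under 1 FPKM (Bcl2l2, Bcl2 in mESC and D5-LSKCD201-, Bak1 in bone marrow and Pmaip1 in D5-LSKCD201+, hence its ratio to D5-LSKCD201-) have an unknown counting error.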
